A study of Mus musculus with 40 samples.

Results

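Cholesterol synthesis, efflux and oxysterol genes were followed in bone marrow-derived macrophages (BMDMs) of WT and Cpeb4-/- mice after lipopolysaccharide (LPS). The set was 31 genes chosen by symbol and role with earlier results of these data known, and each matched exactly 1 of the 27179 rows of the expression table. By role, 7 encode the mevalonate steps and 9 the squalene and sterol steps of cholesterol synthesis, 5 control the sterol-regulated transcription factors (SREBPs), 2 are liver X receptors (LXRs), 3 act in efflux or uptake control, 1 in sterol transport inside the cell, 1 makes an oxysterol and 3 make fatty acids. All 31 passed the filter on low expression, which left 13103 genes in the fit of all libraries.

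The cells came from 4 WT and 4 Cpeb4-/- male mice of a mixed C57BL/6J and 129 background, whose age the labels do not give beyond adult. The marrow cells had grown for 7 days in medium with L-cell conditioned medium, a source of M-CSF. They were left untreated (0 hr) or given 10 ng/ml of LPS from E. coli 0111:B4 for 1, 3, 6 or 9 hr, so that every mouse gave 1 library at each of 5 times, 40 in all, in 2 batches of 2 WT and 2 Cpeb4-/- mice. The mutants are full knockouts, with Cpeb4 deleted in all cells and not in macrophages alone, and no cage held both genotypes. There was 1 untreated time point, so the hours in LPS and the hours in culture cannot be told apart. The unit throughout is rlog, a regularised log2 of the read count of a gene that the authors derived from all 40 libraries. It pulls in differences of genes with few reads, so folds given here are folds on that scale. Values of the libraries of a group are always given in the order of mice 25, 88, 69 and 87 for WT and 3, 62, 2 and 55 for Cpeb4-/- cells, the first pair of each from batch 1, and differences are of the means of 4 libraries with the SE of the limma fit.

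Cpeb4 itself, the targeted gene, separated the genotypes at 6 hr alone. Its rlog was 10.09 to 10.67 in WT and 8.74 to 9.66 in Cpeb4-/- libraries at 6 hr (difference -1.27 ± 0.19, SE, limma adjusted p = 0.00114), and at 0, 1, 3 and 9 hr the adjusted p was 0.357 to 0.611. The value covers reads of the whole gene, the deleted part is not given in the labels, and at those times the genotypes are taken as labelled. The 8 macrophage markers looked at had means of 9.66 to 18.2, while the T cell, B cell and mast cell markers had means of at most 1.36. The summed level of the 7 neutrophil markers ran from 6.08 to 8.11 in WT and from 6.29 to 8.14 in Cpeb4-/- libraries, with Elane, Mpo and Ly6g near or below 0, that of the 3 dendritic cell markers from 3.3 to 4.42 and from 3.42 to 5.15, and that of the 3 fibroblast markers from 2.59 to 4.43 and from 2.73 to 5.9. From 0 to 9 hr the mean of S100a8 went from 5.51 to 7.30 in WT and from 5.42 to 7.16 in Cpeb4-/- cells, that of Camp from 2.3 to 4.70 and from 2.46 to 4.68, that of S100a9 from 4.86 to 4.56 and from 4.71 to 4.71, and that of Ngp from 3.55 to 2.78 and from 3.35 to 2.96; the part of these cells in the results was not tested. Replicate libraries correlated at r = 0.992 to 0.998.

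Cells make cholesterol from acetyl-CoA through mevalonate, squalene and lanosterol. When sterols run low in the endoplasmic reticulum, Scap carries SREBPs to the Golgi, where they are cut and freed to switch on most of the synthesis enzymes. Insig proteins hold Scap back when sterols, including oxysterols, are plentiful. LXRs sense oxysterols and switch on the exporters Abca1 and Abcg1 and the ligase Mylip, which removes lipoprotein receptors. In macrophages LPS is known to induce Ch25h, the enzyme that makes 25-hydroxycholesterol, an oxysterol that holds SREBPs in check.

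RefSeq promoter windows on GRCm38 (250 bases before to 50 after the start) were at hand for 24 of the 31 genes, and not for Fdps, Fdft1, Sqle, Stard4, Abcg1, Scd1 and Scd2. The NF-Y motif CCAAT, on either strand, was in a window of 12 of the 13 synthesis genes and of 18 of all 24, beside 41.06% of the 27025 genes with a window. The sterol regulatory element TCACNCCAC was in 1 of the 24, Hmgcs1, beside 1.44% of genes, and begins 137 bases before the start of the gene. The NF-kB motif, by its name alone, was in 4 (Mvk, Pmvk, Srebf1 and Insig2), beside 9.55%, and the LXR element (DR4) and the interferon-stimulated response element, likewise by name, in none, beside 0.1% and 3.99%. A match is a run of letters and says nothing about binding in these cells. Only these fixed patterns were sought, so a gene without a match may still hold a variant of the element. The 250 bases before the start are given, to show how these motifs are laid out, for 4 genes whose stretch holds no annotated exon, 5′ to 3′ on the strand of the gene, with CCAAT, its reverse complement ATTGG and the sterol element in capitals.
Hmgcs1, chr13:119690101-119690350, plus strand: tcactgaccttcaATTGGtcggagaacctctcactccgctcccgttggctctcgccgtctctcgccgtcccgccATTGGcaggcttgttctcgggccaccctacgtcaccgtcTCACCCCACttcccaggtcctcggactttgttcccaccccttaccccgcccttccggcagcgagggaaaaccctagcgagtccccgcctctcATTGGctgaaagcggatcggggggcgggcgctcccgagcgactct
Mvd, chr8:122443423-122443672, minus strand: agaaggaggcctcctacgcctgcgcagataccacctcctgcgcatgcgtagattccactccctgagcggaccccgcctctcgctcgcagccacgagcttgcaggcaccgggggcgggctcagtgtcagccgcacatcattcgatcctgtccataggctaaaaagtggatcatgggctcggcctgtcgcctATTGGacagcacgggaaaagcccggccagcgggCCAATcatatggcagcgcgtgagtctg
Sc5d, chr9:42264301-42264550, minus strand: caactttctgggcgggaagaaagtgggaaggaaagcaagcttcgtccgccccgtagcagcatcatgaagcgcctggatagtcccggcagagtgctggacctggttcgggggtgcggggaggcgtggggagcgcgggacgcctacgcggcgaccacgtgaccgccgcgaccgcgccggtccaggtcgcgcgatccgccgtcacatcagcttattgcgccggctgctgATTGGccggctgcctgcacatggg
Fasn, chr11:120824548-120824797, minus strand: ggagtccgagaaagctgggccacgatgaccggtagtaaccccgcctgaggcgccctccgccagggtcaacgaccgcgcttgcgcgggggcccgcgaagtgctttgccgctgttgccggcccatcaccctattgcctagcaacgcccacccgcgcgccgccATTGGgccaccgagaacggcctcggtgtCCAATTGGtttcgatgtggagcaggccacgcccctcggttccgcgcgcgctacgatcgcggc
Hmgcs1 carries 3 CCAAT matches in this stretch, with the sterol element between them, Mvd 2 close to the start, Sc5d 1, and Fasn 3, of which 2 overlap.

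In WT cells nearly the whole synthesis pathway was higher 6 to 9 hr after LPS than before it. Of the 16 synthesis genes, 5 were higher than in untreated cells at 1 hr, 10 by 3 hr, 14 by 6 hr and 15 by 9 hr. Mvk was lower at 3 hr, and Dhcr7 was lower from 3 to 9 hr. The median difference of the 16 genes from untreated was 0.14, 0.29, 1.10 and 1.24 on the log2 scale at these times in turn, where the median over all 13103 genes was 0.02, -0.02, -0.02 and -0.00429.

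Over all 31 genes, 12 were higher and 1 was lower at 1 hr, against 19.4% and 18.3% of all genes tested. At 3 hr 16 were higher and 5 lower, against 33.5% and 36.4%. At 6 hr 24 were higher and 3 lower, against 39.7% and 40.2%, and at 9 hr 26 and 2, against 37% and 36.6%. A gene counted as higher or lower had a Benjamini-Hochberg adjusted p under 0.05 in limma. These 4 comparisons share the untreated libraries, and fewer cells of a type cannot be told apart from less RNA per cell in such bulk samples. Under quantile normalization 10 of the 31 were higher and 4 lower at 1 hr, 15 and 8 at 3 hr, 19 and 7 at 6 hr, and 23 and 3 at 9 hr. The share of higher genes among all genes called was then 37.8%, 41.9%, 46.3% and 49.4% at these times in turn. In the deposited values it was 51.5%, 47.9%, 49.7% and 50.3%. The share of all genes tested that was called under quantile normalization is not given.

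**Figure D1:**
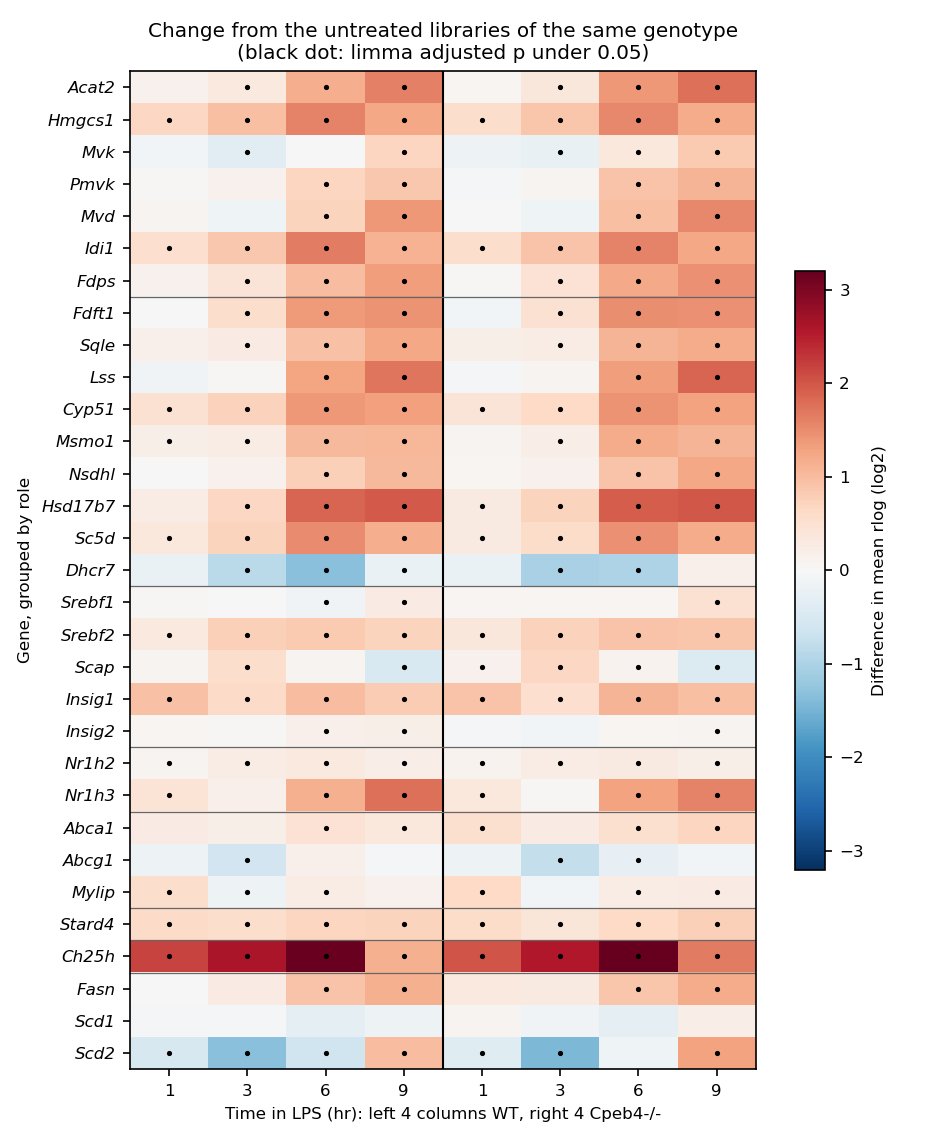
Difference in mean rlog (log2, colour) between LPS-treated and untreated libraries of the same genotype for each of the 31 genes (rows, grouped by role) at 1, 3, 6 and 9 hr (columns, WT left and Cpeb4-/- right), with a dot where the limma adjusted p was under 0.05. Red rows of synthesis genes deepen at 6 and 9 hr in both genotypes, Ch25h is the darkest row, with 3.16 in WT at 6 hr, and Dhcr7 and Scd2 are blue at 3 hr.

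Hmgcs1, which makes HMG-CoA from acetoacetyl-CoA, was among the early risers of the mevalonate steps. Its rlog was 11.82, 11.80, 11.81 and 11.67 in the 4 untreated WT libraries, 12.46, 12.40, 12.57 and 12.37 at 1 hr and 13.48, 13.28, 13.23 and 13.52 at 6 hr. The groups did not overlap, and the mean rose by 0.67 at 1 hr and 1.60 ± 0.06 (SE) at 6 hr on the log2 scale, a 3.03-fold change (limma adjusted p = 9.86e-23). Idi1, the isomerase that turns isopentenyl into dimethylallyl pyrophosphate, followed the same course, from 6.06, 5.88, 5.91 and 5.73 in untreated cells to 7.57, 7.50, 7.44 and 7.57 at 6 hr, a difference of 1.63 ± 0.08 (adjusted p = 5.66e-20). Both had their highest mean at 6 hr and were lower by 0.36 and 0.52 by 9 hr, with the fall of Hmgcs1 at -0.06 and not called under quantile normalization. Of the 4 genes whose promoters are shown, Hmgcs1 and Sc5d were higher at 1 hr, by 0.67 and 0.35, and Mvd and Fasn were not called then (0.09 and 0.01).

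The other 5 mevalonate genes were not called at 1 hr and had their highest mean at 9 hr. Acat2, the thiolase that opens the pathway, lay at 8.72, 8.84, 8.84 and 8.83 in untreated and 10.51, 10.28, 10.21 and 10.62 in 9 hr libraries, a difference of 1.60 ± 0.10 (adjusted p = 4.07e-17). Mvd, mevalonate diphosphate decarboxylase, lay at 9.37, 9.56, 9.47 and 9.64 and then 10.99, 10.74, 10.80 and 11.08, a difference of 1.39 ± 0.10 (adjusted p = 2.08e-15). Fdps, which makes farnesyl pyrophosphate, went from 9.99, 10.05, 10.06 and 10.16 to 11.50, 11.27, 11.32 and 11.55, a difference of 1.34 ± 0.08 (adjusted p = 2.7e-17). In each of the 3 genes the lowest 9 hr library lay above the highest untreated library. Mevalonate kinase, Mvk, was lower at 3 hr (by 0.35), not called at 6 hr (-0.01, 95% interval -0.21 to 0.18) and higher by 0.68 at 9 hr. Phosphomevalonate kinase, Pmvk, was called at 6 and 9 hr, with differences of 0.69 and 0.86. Acat2 is the synthesis gene with a promoter window and no CCAAT, and its call at 3 hr (0.32) was lost without WT mouse 25 (difference 0.23, adjusted p = 0.067).

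Among the squalene and sterol steps, Hsd17b7, a ketoreductase of the demethylation of lanosterol, changed most. Its untreated WT libraries lay at 8.90, 8.58, 8.81 and 8.47, those of 6 hr at 10.69, 10.40, 10.42 and 10.72 and those of 9 hr at 10.74, 10.58, 10.47 and 10.82. At 9 hr the mean was 1.97 ± 0.11 higher, 3.9-fold (adjusted p = 1.13e-17). Lss, which folds squalene epoxide into lanosterol, showed no call at 1 or 3 hr (-0.11 and 0.03) and then went from 8.95, 9.11, 9.06 and 8.88 at 3 hr to 10.28, 10.12, 10.14 and 10.36 at 6 hr and 10.83, 10.59, 10.48 and 10.88 at 9 hr. Against untreated libraries at 8.97, 8.99, 9.04 and 8.88 that was a difference of 1.72 ± 0.09 (adjusted p = 6.89e-19). Fdft1, squalene synthase, lay at 9.12, 9.23, 9.20 and 9.09 without LPS and reached 10.66, 10.45, 10.52 and 10.75 at 9 hr, a difference of 1.44 ± 0.06 (adjusted p = 2.45e-21).

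Sqle, the squalene epoxidase often counted as a further rate-limiting enzyme, moved less. It went from 11.03, 11.00, 11.04 and 10.96 to 12.32, 12.14, 12.08 and 12.40 at 9 hr, a difference of 1.23 ± 0.07 (adjusted p = 5.97e-17). Cyp51, lanosterol demethylase, and Sc5d, a sterol desaturase, were called from 1 hr onward. Cyp51 lay at 11.70, 11.60, 11.67 and 11.65 in untreated libraries and reached 13.15, 12.94, 12.89 and 13.16 at 6 hr, a difference of 1.38 ± 0.07 (adjusted p = 3.99e-20). Sc5d lay at 10.73, 10.71, 10.70 and 10.69 and, at 6 hr, at 12.24, 12.17, 12.12 and 12.30, a 2.83-fold rise (adjusted p = 2.93e-24).

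Msmo1 and Nsdhl act together in removing the methyl groups from the sterol ring. Msmo1 lay at 11.69, 11.73, 11.75 and 11.71 in untreated and 12.83, 12.71, 12.68 and 12.93 in 9 hr libraries, a difference of 1.06 ± 0.05 (adjusted p = 3.82e-19). Its small rises at 1 and 3 hr (0.19 and 0.23) turned to -0.01 and -0.18 under quantile normalization. Nsdhl lay at 9.04, 9.05, 9.00 and 8.86 and, at 9 hr, at 10.13, 9.97, 9.83 and 10.18, a difference of 1.04 ± 0.08 (adjusted p = 2.05e-14).

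Dhcr7, which carries out a last reduction to cholesterol, went the other way. Its WT libraries lay at 9.48, 9.40, 9.45 and 9.47 without LPS, 8.61, 8.58, 8.65 and 8.51 at 3 hr, 8.16, 7.95, 7.93 and 8.38 at 6 hr and 9.37, 9.15, 8.92 and 9.47 at 9 hr. It fell by 1.34 on the log2 scale by 6 hr (SE 0.09, adjusted p = 9.07e-16) and then rose by 1.12 ± 0.09 between 6 and 9 hr (adjusted p = 8.54e-13). The 9 hr groups overlapped with the untreated ones, and the call there (-0.22) was lost under quantile normalization and without WT mice 69 and 88 (-0.21 to -0.12, adjusted p = 0.084 to 0.27).

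**Figure D2:**
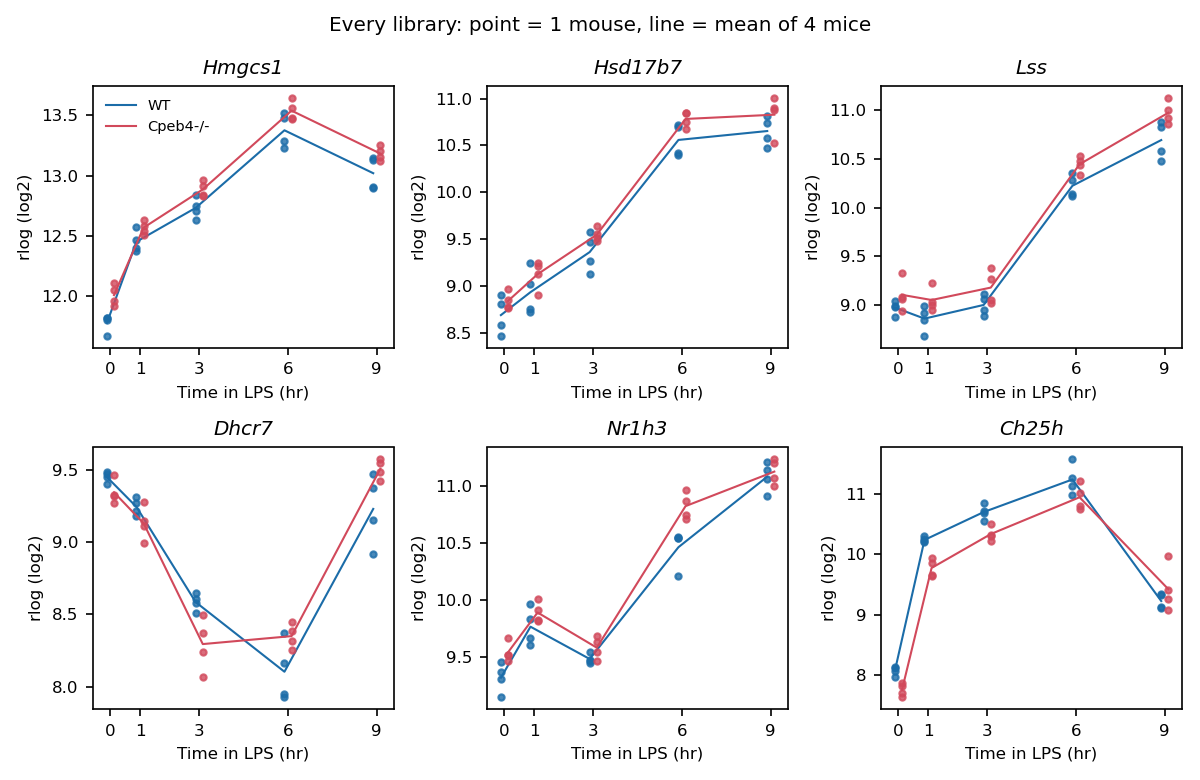
rlog (log2, vertical axis) against time in LPS (hr, horizontal axis) for Hmgcs1, Hsd17b7, Lss, Dhcr7, Nr1h3 and Ch25h, with 1 point per mouse (WT blue, Cpeb4-/- red) and a line through the mean of 4 mice. Hmgcs1, Hsd17b7, Lss and Nr1h3 climb to 6 or 9 hr, Dhcr7 dips and returns, and Ch25h peaks at 6 hr and drops by 2.01 by 9 hr in WT cells.

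No SREBP gene or regulator differed from untreated WT cells by as much as 1 on the log2 scale at any time. Srebf2, the SREBP gene tied mainly to cholesterol synthesis, rose from 12.58, 12.52, 12.51 and 12.43 to 13.40, 13.22, 13.34 and 13.42 at 6 hr, a difference of 0.83 ± 0.06 (adjusted p = 1.35e-14), but it was not called at 1 or 6 hr under quantile normalization (0.05 and 0.04). Insig1, itself an SREBP target, rose by 0.93 at 1 hr, from 11.28, 11.37, 11.31 and 11.30 to 12.22, 12.29, 12.25 and 12.24, when 5 of the 16 synthesis genes were called, and stayed 0.61 to 0.98 above untreated to 9 hr. Insig2 was called at 6 and 9 hr, with differences of 0.17 and 0.19, the first lost under quantile normalization. Scap, the SREBP escort, lay 0.56 above untreated at 3 hr and 0.49 below it at 9 hr. Srebf1, the SREBP gene tied mainly to fatty acids, changed by -0.11 at 6 hr and 0.26 at 9 hr, the first of which was lost without WT mice 25, 87 and 88 (adjusted p = 0.055 to 0.092) and the second of which turned to -0.12 under quantile normalization.

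Of the LXRs, Nr1h3 (LXR alpha) rose and Nr1h2 (LXR beta) hardly moved. Nr1h3 lay at 9.14, 9.37, 9.30 and 9.45 in untreated WT libraries, 9.44, 9.47, 9.46 and 9.54 at 3 hr, 10.54, 10.21, 10.54 and 10.55 at 6 hr and 11.14, 10.91, 11.21 and 11.05 at 9 hr. The difference at 9 hr was 1.76 ± 0.08, 3.39-fold (adjusted p = 1.52e-20). Nr1h2 was called higher at all 4 times by 0.08 to 0.30, and under quantile normalization its difference was -0.10 to -0.03, so it has no firm direction.

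In WT cells the 3 genes of efflux and uptake control differed from untreated by at most 0.61 on the log2 scale of the deposited values. Abca1, the cholesterol exporter to lipid-poor apolipoprotein, was not called at 1 or 3 hr, was 0.46 higher at 6 hr and 0.35 higher at 9 hr, and -0.39 and -0.24 under quantile normalization. Abcg1, the exporter to high-density lipoprotein, was lower by 0.61 at 3 hr (adjusted p = 2.25e-06) and not called at 1, 6 or 9 hr (-0.16, 0.16 and -0.04), though it was -0.65 and called at 6 hr under quantile normalization. Mylip rose by 0.56 at 1 hr (adjusted p = 3.91e-08), was 0.17 lower at 3 hr and 0.23 higher at 6 hr, a value that turned to -0.09 under quantile normalization. The 3 hr call of Mylip was lost without WT mice 25 and 69 (difference -0.17 to -0.13, adjusted p = 0.081 to 0.15). Stard4, a carrier that moves sterol between membranes, was 0.56 to 0.72 above untreated at all 4 times.

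In WT cells Ch25h had the largest change of the 31 genes. Its rlog was 8.13, 7.98, 8.12 and 8.07 in untreated WT libraries, 10.21, 10.29, 10.24 and 10.20 at 1 hr and 10.85, 10.54, 10.70 and 10.68 at 3 hr. It then lay at 11.13, 11.56, 11.26 and 10.97 at 6 hr and 9.13, 9.32, 9.34 and 9.11 at 9 hr. No group overlapped with the untreated libraries. The rise was 3.16 ± 0.12 at 6 hr, 8.92-fold (adjusted p = 6.79e-23), and 2.01 of it was lost between 6 and 9 hr (SE 0.12, adjusted p = 6.23e-16).

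The fatty acid genes split. Fasn, fatty acid synthase, lay at 10.38, 10.29, 10.14 and 10.03 in untreated and 11.47, 11.45, 11.01 and 11.41 in 9 hr WT libraries, a difference of 1.13 ± 0.16 (adjusted p = 1.26e-07). Scd2, a desaturase that puts the double bond into stearate, first fell and then overshot, with 11.98, 11.88, 11.81 and 11.88 in untreated libraries, 10.54, 10.73, 10.46 and 10.48 at 3 hr, 11.39, 11.09, 11.14 and 11.37 at 6 hr and 12.89, 13.10, 12.65 and 12.91 at 9 hr. It was 1.34 below untreated at 3 hr (adjusted p = 2.16e-11) and 1.00 above it at 9 hr (adjusted p = 1.75e-08), and the step from 6 to 9 hr was 1.64 ± 0.13. Its relative Scd1 was not called at any time in WT cells (-0.29 to -0.04, with a 95% interval at 6 hr of -0.70 to 0.13).

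More of the 31 genes were called as rising between 3 and 6 hr than in any other step. This counts calls and not size. Ch25h, for one, was already 2.62 above untreated at 3 hr, beside 3.16 at 6 hr. Between 1 and 3 hr 11 of the 31 genes rose and 8 fell, against 29.3% and 33.7% of all genes tested. Between 3 and 6 hr 25 rose and 3 fell, against 34.8% and 32%, and the risers included 15 of the 16 synthesis genes. Between 6 and 9 hr 11 rose and 7 fell, against 24.9% and 29.5%, with 8 of the 16 synthesis genes among the first and 3 among the second. In WT cells the mean was highest at 9 hr for 17 of the 31 genes, at 6 hr for 10, at 0 hr for 2 and at 1 and 3 hr for 1 each, and in Cpeb4-/- cells at 9 hr for 18, at 6 hr for 10 and at 0, 1 and 3 hr for 1 each.

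Cpeb4-/- cells were compared with their own untreated libraries in the same way. At 1 hr 14 of the 31 genes were higher and 1 was lower, against 22.6% and 19.4% of all genes tested. At 3 hr 16 were higher and 4 lower, against 33.7% and 36.2%. At 6 hr 25 were higher and 2 lower, against 38.4% and 39.5%, and at 9 hr 27 and 1, against 35.7% and 35.6%. Under quantile normalization 10 were higher and 5 lower at 1 hr, 14 and 8 at 3 hr, 20 and 5 at 6 hr, and 24 and 2 at 9 hr. The share of higher genes among all called was then 37.9%, 42%, 47.2% and 48.2% at these times in turn. In the deposited values it was 53.8%, 48.2%, 49.3% and 50.1%. The share of all genes tested that was called under quantile normalization is again not given. No gene of the 31 was called in opposite directions in the genotypes at any of the 4 times. In Cpeb4-/- libraries Hmgcs1 lay at 12.11, 11.96, 11.91 and 12.05 untreated and 13.48, 13.47, 13.64 and 13.56 at 6 hr, a difference of 1.53. Ch25h went from 7.82, 7.64, 7.71 and 7.87 to 11.21, 10.74, 10.80 and 11.01, a difference of 3.18, and Nr1h3 rose by 1.58 by 9 hr. Dhcr7 was 1.05 lower at 3 hr and 0.99 lower at 6 hr, and 0.16 from untreated, not called, at 9 hr.

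The mevalonate genes were each higher at 9 hr in Cpeb4-/- cells too, with differences of 1.77 for Acat2, 1.18 for Hmgcs1, 0.85 for Mvk, 1.08 for Pmvk, 1.54 for Mvd, 1.23 for Idi1 and 1.47 for Fdps. In WT cells the same genes stood at 1.60, 1.24, 0.68, 0.86, 1.39, 1.10 and 1.34. Of the later steps, Hsd17b7 again had the largest difference (1.99, from 8.97, 8.76, 8.78 and 8.85 to 11.01, 10.88, 10.53 and 10.89), beside 1.87 for Lss, 1.46 for Fdft1, 1.25 for Nsdhl, 1.18 for Sqle, 1.29 for Cyp51, 1.19 for Sc5d and 1.08 for Msmo1. Scd2 lay at 12.50, 12.03, 12.11 and 12.29 in untreated Cpeb4-/- libraries, 11.18, 10.48, 10.72 and 10.83 at 3 hr and 13.69, 13.60, 13.32 and 13.44 at 9 hr, a fall of 1.43 and then a level 1.28 above untreated. Fasn was 1.18 above untreated at 9 hr and Scd1 0.22, the latter not called. Abca1 was 0.69 above untreated at 9 hr, Mylip 0.63 at 1 hr, and Abcg1 0.75 below it at 3 hr. In Cpeb4-/- cells Srebf2 was higher by 0.92 and Insig1 by 1.10 at 6 hr. Under quantile normalization the Cpeb4-/- differences of Abca1 and Mylip at 6 hr turned from 0.51 and 0.23 to -0.29 and -0.06.

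The direct comparison of the genotypes drew out small differences, most of them at 6 and 9 hr and upward in Cpeb4-/- cells. At 0 hr none of the 31 genes was called by limma, against 0.741% of all genes higher and 0.565% lower; 7 had an unadjusted p under 0.05, and 1 was called in a model of all 40 libraries (Hmgcs1, 0.23) and 1 under quantile normalization (Ch25h, -0.37). At 1 hr 1 gene was lower and none higher, against 0.938% and 0.976%, and at 3 hr 2 were lower and none higher, against 1.87% and 1.81%. At 6 hr 8 were higher and 1 lower, against 6.4% and 9.92%, and at 9 hr 5 were higher and none lower, against 4.69% and 3.22%. With the mouse as a replicate block in a model of all 40 libraries the counts were 6 at 1 hr, 4 at 3 hr and 11 at 9 hr. Single mice also moved them. Without Cpeb4-/- mouse 55 or 62 or WT mouse 88 none was called at 1 hr, and 3 were without WT mouse 69. Without Cpeb4-/- mouse 2 or 62 or WT mouse 25 or 87 none was called at 3 hr, 1 was without mouse 3, 55 or 69, and 4 were without WT mouse 88. At 6 hr 5 were called without Cpeb4-/- mouse 3 and 15 without WT mouse 87, and at 9 hr 13 without Cpeb4-/- mouse 2, whose 9 hr library had the largest median deviation from its group of all 40 libraries (0.19 on the log2 scale). The shares of all genes called with the block or without single mice are not given, so these counts cannot be set against them.

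All 16 synthesis genes had a higher mean in Cpeb4-/- than in WT cells at 6 hr, with a median difference of 0.20 beside -0.02 over all genes tested, and 4 of them were called. At 0 hr 7 of the 16 had a higher mean, with a median of -0.004, and at 9 hr 14, with a median of 0.15. Without the filter on low expression the 6 hr calls of Mvk, Fdps, Sqle, Lss, Srebf2 and Nr1h3 were lost (adjusted p = 0.0564 to 0.138), and without the trend those of Mvk, Fdps, Sqle, Lss and Srebf2 (adjusted p = 0.0521 to 0.097). Under quantile normalization 12 of the 31 genes were called higher at 6 hr and 1 lower, and the share of higher genes among all genes called at 6 hr was 51% in place of 39.2%. The share of all genes tested that was called there is not given.

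Sqle was the synthesis gene with the largest genotype difference at 6 hr. It lay at 12.04, 11.76, 11.87 and 12.14 in WT and 12.21, 12.17, 12.36 and 12.35 in Cpeb4-/- libraries, without overlap, a difference of 0.32 ± 0.08 (adjusted p = 0.014), 0.29 in batch 1 and 0.35 in batch 2. The Mvk libraries lay at 9.21, 9.01, 9.08 and 9.36 in WT and 9.43, 9.39, 9.49 and 9.38 in Cpeb4-/- cells, a difference of 0.26 ± 0.07 (adjusted p = 0.0262), 0.30 in batch 1 and 0.21 in batch 2. Fdps lay at 11.07, 10.92, 10.95 and 11.22 and 11.25, 11.22, 11.39 and 11.20, a difference of 0.22 ± 0.07 (adjusted p = 0.0371), 0.24 in batch 1 and 0.21 in batch 2. For Lss the values were 10.28, 10.12, 10.14 and 10.36 in WT and 10.44, 10.33, 10.48 and 10.53 in Cpeb4-/- cells, a difference of 0.22 ± 0.06 (adjusted p = 0.0281), 0.18 in batch 1 and 0.26 in batch 2. Fdps and Lss overlapped between the genotypes by 1 WT library, mouse 87. The Mvk call was lost without mice 2, 3, 69 and 88 (difference 0.21 to 0.26, adjusted p = 0.061 to 0.08), that of Fdps without mice 2, 3, 25, 62, 69 and 88 (0.18 to 0.24, adjusted p = 0.051 to 0.11) and that of Lss without mice 2, 3, 55, 69 and 88 (0.19 to 0.22, adjusted p = 0.059 to 0.083). In the model of all 40 libraries with the mouse as a replicate block, Lss was not called (adjusted p = 0.0942). Without LPS the Sqle libraries already lay apart, at 10.958 to 11.042 in WT and 11.094 to 11.321 in Cpeb4-/- cells, though not called. That untreated difference was 0.20 in batch 1 and 0.15 in batch 2. For Lss it was 0.21 and 0.05, for Mvk -0.09 and -0.08, and for Fdps -0.01 and 0.01.

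Both SREBP genes were higher in Cpeb4-/- cells at 6 and at 9 hr. Srebf1 lay at 11.82, 11.68, 11.80 and 11.85 in WT and 12.02, 12.00, 11.93 and 11.96 in Cpeb4-/- libraries at 6 hr, a difference of 0.19 ± 0.04 (adjusted p = 0.014), 0.26 in batch 1 and 0.11 in batch 2. At 9 hr it lay at 12.18, 12.16, 12.13 and 12.15 and 12.35, 12.40, 12.46 and 12.40, a difference of 0.25 ± 0.04 (adjusted p = 0.00991), 0.20 in batch 1 and 0.29 in batch 2. At neither time did the genotypes overlap. Srebf2 lay at 13.40, 13.22, 13.34 and 13.42 in WT and 13.57, 13.53, 13.49 and 13.55 in Cpeb4-/- libraries at 6 hr (0.19 ± 0.05, adjusted p = 0.0173, 0.24 in batch 1 and 0.14 in batch 2). At 9 hr its values were 13.26, 13.18, 13.20 and 13.23 and 13.52, 13.57, 13.39 and 13.54, 0.29 ± 0.05 apart (adjusted p = 0.0112), 0.33 in batch 1 and 0.25 in batch 2. Without Cpeb4-/- mouse 3 the 6 hr difference of Srebf2 was 0.18 (adjusted p = 0.0503). Insig2 was the gene called lower at 6 hr, with 10.05, 10.03, 9.96 and 10.01 in WT and 9.78, 9.87, 9.89 and 9.79 in Cpeb4-/- libraries, a difference of -0.18 ± 0.04 (adjusted p = 0.0163), -0.21 in batch 1 and -0.15 in batch 2, and -0.16 without mouse 3 (adjusted p = 0.052). Its mean was below WT at all 5 times, by 0.07 to 0.18. In the model of all 40 libraries with the mouse as a replicate block, Insig2 was called at 1, 3, 6 and 9 hr. That fit differs from the main one both in the block and in the libraries pooled.

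**Figure D3:**
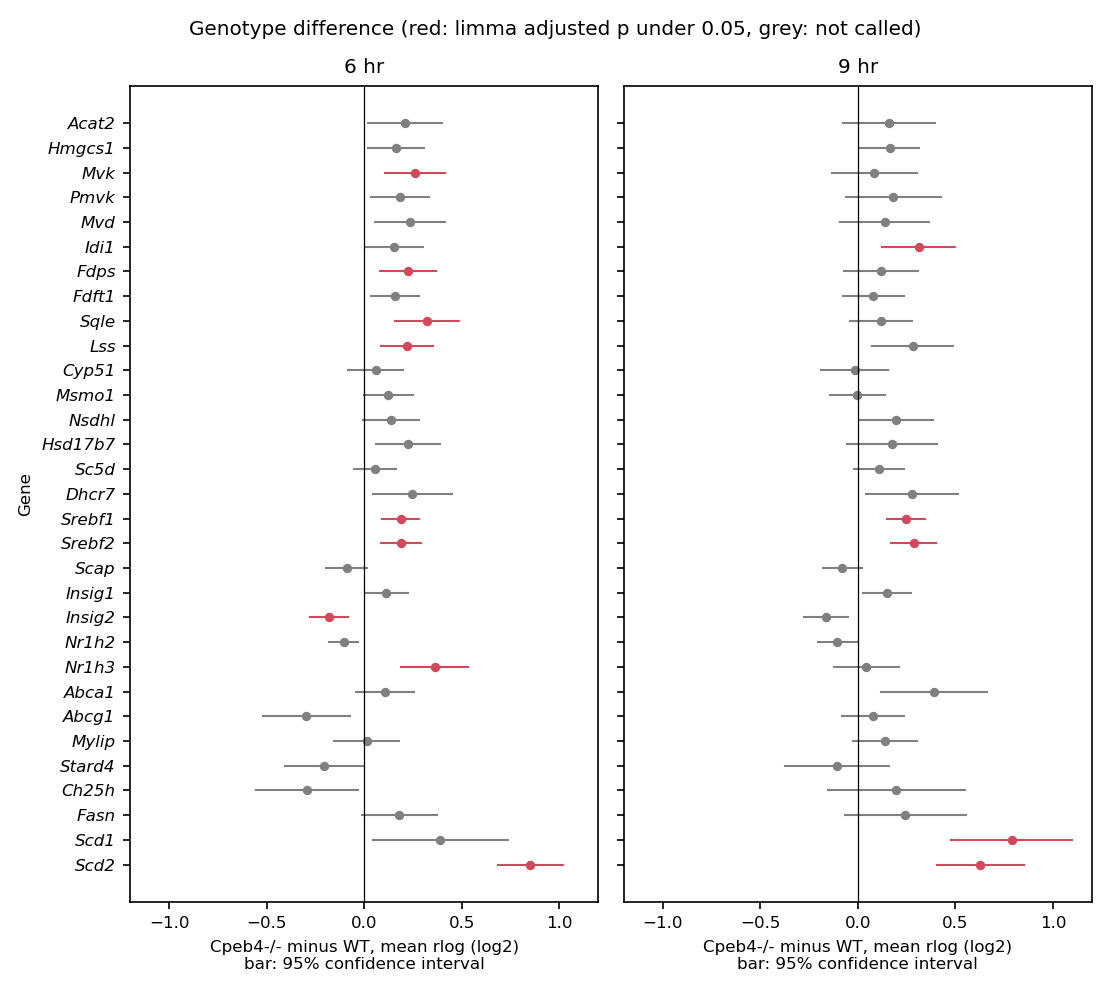
Cpeb4-/- minus WT difference in mean rlog (log2, horizontal axis) for each of the 31 genes (vertical axis) at 6 hr (left) and 9 hr (right), with 95% confidence intervals and red for a limma adjusted p under 0.05. Most points lie to the right of 0 at both times, Scd2 and Scd1 farthest, with 0.85 for Scd2 at 6 hr and 0.79 for Scd1 at 9 hr. Insig2 lies to the left at both times and is red at 6 hr. Scap, Nr1h2 and Stard4 also lie to the left at both times, Abcg1 and Ch25h do at 6 hr, and Cyp51 and Msmo1 do by a little at 9 hr, all in grey.

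The largest genotype differences were those of the desaturases. Scd2 lay at 11.39, 11.09, 11.14 and 11.37 in WT and 12.24, 12.01, 12.16 and 11.98 in Cpeb4-/- libraries at 6 hr, a gap wider than the spread of either group. The difference was 0.85 ± 0.08, 1.8-fold (adjusted p = 6.73e-05), 0.89 in batch 1 and 0.81 in batch 2. At 9 hr the values were 12.89, 13.10, 12.65 and 12.91 in WT and 13.69, 13.60, 13.32 and 13.44 in Cpeb4-/- libraries, a difference of 0.63 ± 0.10 (adjusted p = 0.00656), 0.66 in batch 1 and 0.60 in batch 2. Scd1 lay at 8.70, 8.89, 8.51 and 8.84 in WT and 9.96, 9.28, 9.50 and 9.35 in Cpeb4-/- libraries at 9 hr, a difference of 0.79 ± 0.14, 1.73-fold (adjusted p = 0.0103), 0.82 in batch 1 and 0.76 in batch 2. Both genes had a higher mean in Cpeb4-/- cells at every time, with Scd1 at 0.34 to 0.79 and Scd2 at 0.25 to 0.85, and Cpeb4-/- mouse 3 was the highest of its group for both at every time. The 5 calls of Scd2 at 6 hr and of Srebf1, Srebf2, Scd1 and Scd2 at 9 hr held without each of the 8 mice in turn, but that of Scd1 was lost without the filter on low expression (adjusted p = 0.0527). Fasn, by contrast, was not called at any time (0.18 to 0.50).

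**Figure D4:**
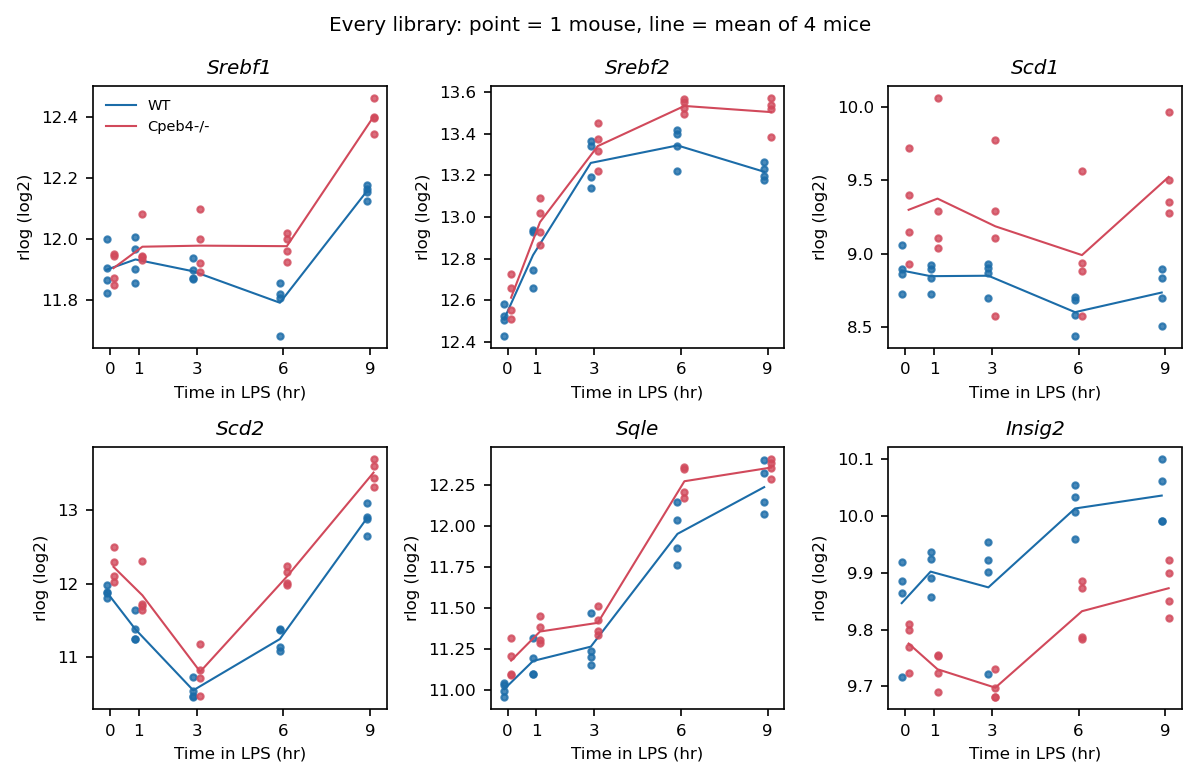
rlog (log2, vertical axis) against time in LPS (hr, horizontal axis) for Srebf1, Srebf2, Scd1, Scd2, Sqle and Insig2, with 1 point per mouse (WT blue, Cpeb4-/- red) and a line through the mean of 4 mice. The red Scd1 and Scd2 lines lie above the blue at every time, Srebf1 parts at 6 and 9 hr, by 0.19 and 0.25, and Insig2 runs below WT throughout.

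Nr1h3 and Idi1 were each called at a single time, though both had a higher mean in Cpeb4-/- cells at every time. Without LPS Nr1h3 lay at 9.145 to 9.451 in WT and 9.459 to 9.663 in Cpeb4-/- libraries, 0.26 apart in batch 1 and 0.18 in batch 2. Idi1 was higher by 0.11 in batch 1 and 0.26 in batch 2 without LPS, and by 0.19 and 0.27 at 3 hr. Nr1h3 lay at 10.54, 10.21, 10.54 and 10.55 in WT and 10.74, 10.96, 10.71 and 10.86 in Cpeb4-/- libraries at 6 hr, a difference of 0.36 ± 0.08 (adjusted p = 0.0102), 0.48 in batch 1 and 0.24 in batch 2, and by 9 hr the difference was 0.04 (95% interval -0.12 to 0.21). Idi1 lay at 7.12, 7.00, 6.80 and 7.07 in WT and 7.33, 7.25, 7.28 and 7.38 in Cpeb4-/- libraries at 9 hr, a difference of 0.31 ± 0.08 (adjusted p = 0.0479), 0.23 in batch 1 and 0.39 in batch 2. That call was lost without any mouse other than Cpeb4-/- mouse 2 (0.25 to 0.35, adjusted p = 0.071 to 0.12). Abca1 was 0.39 higher in Cpeb4-/- cells at 9 hr (95% interval 0.12 to 0.66) but was not called (adjusted p = 0.0739). Abcg1 was -0.30 at 6 hr (95% interval -0.52 to -0.07, adjusted p = 0.0689). It was called in the model of all 40 libraries with the mouse as a replicate block (adjusted p = 0.0264).

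Early after LPS, Ch25h was lower in Cpeb4-/- cells. At 1 hr it lay at 10.21, 10.29, 10.24 and 10.20 in WT and 9.93, 9.66, 9.64 and 9.86 in Cpeb4-/- libraries, a difference of -0.46 ± 0.07 (adjusted p = 0.0207), -0.46 in batch 1 and -0.47 in batch 2. At 3 hr it lay at 10.85, 10.54, 10.70 and 10.68 and 10.32, 10.29, 10.22 and 10.50, a difference of -0.36 ± 0.08 (adjusted p = 0.0339), -0.39 in batch 1 and -0.34 in batch 2. The genotypes did not overlap at 0, 1 or 3 hr, and the untreated difference was -0.32 (adjusted p = 0.0575). Later differences were -0.29 (6 hr) and 0.20 (9 hr), neither called. Stard4 at 3 hr lay at 10.05, 10.27, 10.11 and 10.05 in WT and 9.98, 9.76, 9.67 and 9.71 in Cpeb4-/- libraries, a difference of -0.34 ± 0.08 (adjusted p = 0.0423), -0.29 in batch 1 and -0.39 in batch 2. These early calls were not firm. That of Ch25h at 1 hr was lost without mice 55, 62 and 88 (difference -0.49 to -0.42, adjusted p = 0.054 to 0.08), at 3 hr without mice 2, 3, 25, 62, 69 and 87 (-0.37 to -0.31, adjusted p = 0.059 to 0.12) and that of Stard4 without mice 2, 25, 55, 62, 69 and 87 (-0.36 to -0.30, adjusted p = 0.059 to 0.12), and both 3 hr calls were lost with batch as a covariate. Without the filter on low expression all 3 were lost (adjusted p = 0.0606 to 0.109).

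Whether the response to LPS itself differed between the genotypes was tested as the genotype difference at each time against that at 0 hr. No gene of the 31 was called by limma at 1, 3 or 6 hr, with 0, 0 and 5 at an unadjusted p under 0.05, where 0.00763%, 0.206% and 2.94% of all genes were called. At 9 hr 1 was, Srebf1, against 1.76% of all genes. Srebf1 differed between the genotypes by 0.01 without LPS and by 0.25 at 9 hr, and the change between them was 0.24 ± 0.06 (adjusted p = 0.0399). It was lost without mice 2, 25, 55, 62, 69 and 87 (0.21 to 0.26, adjusted p = 0.077 to 0.19). For Scd2 the same contrast at 6 hr was 0.51 ± 0.18 (adjusted p = 0.136), and for Ch25h at 9 hr 0.51 ± 0.17 (adjusted p = 0.139).

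The libraries of a mouse at the 5 times come from the same animal, and with the mouse as a replicate block more of these contrasts were called. At 6 hr 3 genes were called with the mouse as a random effect, Srebf1 (0.18), Abcg1 (-0.41) and Scd2 (0.51), and 4 with the mouse as a fixed effect, which added Mvk (0.34). The adjusted p of Scd2 was 0.0288 and 0.0132 in the 2 fits, and that of Abcg1 0.0264 and 0.0132. At 9 hr 3 were called with the random effect, Srebf1, Ch25h (0.51, adjusted p = 0.0336) and Dhcr7 (0.38, adjusted p = 0.0486), and 2 with the fixed effect, Srebf1 and Ch25h. The shares of all genes called in these 2 fits are not given, so the counts cannot be set against them. Without Cpeb4-/- mouse 3, 1 gene was called at 6 hr in the fit without a block.

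A further 22 genes of the same pathways, from a list of the pathway also drawn up with earlier results known, were looked at as well. Cyp7b1, an oxysterol hydroxylase, was below the filter, and of the 21 tested 8 were higher and 13 lower in WT cells at 6 hr, against 39.7% and 40.2% of all genes tested, and 10 and 11 at 9 hr, against 37% and 36.6%. Gpr183, the receptor for oxysterols made through Ch25h, fell by 3.04 at 6 hr (adjusted p = 5.48e-25), while Ch25h was at its peak. Cyp27a1, a mitochondrial sterol hydroxylase, fell by 2.60 by 9 hr (adjusted p = 1.53e-27), Fads1, a polyunsaturated fatty acid desaturase, by 2.02 at 6 hr (adjusted p = 7.42e-30) and Lipa, the lysosomal lipase that frees cholesterol from its esters, by 1.09 at 9 hr (adjusted p = 3.41e-16). Stard3, a sterol carrier of late endosomes, rose by 1.46 at 6 hr (adjusted p = 4.32e-22), and Acss2, which makes acetyl-CoA from acetate, by 1.00 at 9 hr (adjusted p = 9.01e-11).

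Between the genotypes, 6 of the 21 were higher and none lower in Cpeb4-/- cells at 9 hr, against 4.69% and 3.22% of all genes tested. At 6 hr 3 were higher and 3 lower, against 6.4% and 9.92%, and none was called at 1 or 3 hr. Among those higher at 9 hr were Elovl6 (0.71), which lengthens fatty acids, Acss2 (0.54), the desaturase Fads2 (0.53), acetyl-CoA carboxylase Acaca (0.43) and Fads1 (0.34), with adjusted p of 0.00596 to 0.0241. The call of Elovl6 was lost without mice 3, 62, 69 and 88 (0.59 to 0.68, adjusted p = 0.051 to 0.072) and that of Fads2 without mouse 25 (0.51, adjusted p = 0.054). Both were also lost without the filter on low expression, as was the 6 hr call of Cyp27a1 (adjusted p = 0.0569 to 0.0876). At 6 hr Acss2 (0.28) and Elovl6 (0.35) were among the higher, and Nceh1 (-0.42), which hydrolyses cholesteryl esters, Cyp27a1 (-0.35) and Stard3 (-0.18) lower, with adjusted p of 0.00066 to 0.0159. At 0 hr Soat1, which esterifies cholesterol, was 0.28 higher (adjusted p = 0.0322), a call lost without mice 2, 3, 25, 55, 62 and 69 (0.27 to 0.29, adjusted p = 0.061 to 0.12). Against the 0 hr difference, Fads1 (0.45), Acss2 (0.56) and Elovl6 (0.60) were called at 9 hr, with limma adjusted p of 0.000161, 0.0375 and 0.0483, and Nceh1 (-0.48, adjusted p = 0.00385) at 6 hr.

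Some values carry reads that cannot be assigned with certainty, since the library kit does not mark the strand. In GENCODE vM21 (GRCm38), exons of Fdps (chr3:89093588-89101959) share 26.7% of their bases with the overlapping gene Gm43738 on the same strand. Fdft1 (chr14:63145150-63179578) shares 18.3% with Ctsb on the opposite strand, Scap 13.2%, Hmgcs1 12.1% and Ch25h 11.5% with transcripts of the opposite strand, and the remaining 26 genes share under 10% or nothing. Nr1h2 has a pseudogene, Nr1h2-ps. How the authors' counting treated shared reads is not given in the sources used here.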

How the data were processed

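RNA was measured by poly(A) RNA-seq in 40 libraries. Per the labels and the study's methods, the authors aligned reads to mm10 with STAR 2.3.0e, counted them per gene with featureCounts and deposited 1 table of rlog values, which are log2 counts regularised with DESeq2 over all libraries. Neither counts nor the alignment statistics that the study lists in its supplement were used here. The depth of each library was therefore not looked at, no count test was run and no interval or floor from counts is given. The number of libraries limits the precision.

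The deposited values were fitted with limma 3.58.1 in R 4.3.3 (eBayes with trend), with Benjamini-Hochberg adjustment over all genes tested and a threshold of 0.05. Times were compared in 1 model of 10 groups, and the genotypes at each time in its 8 libraries, as the study did, after genes with a mean rlog under log2 of 5 had been set aside. Groups come from the labels, and their biological replicate numbers are taken as mice, each a separate animal. After removal of group means, 80 pairs of libraries of the same mouse correlated at a median r of 0.29 (68 of them over 0.1) and 240 pairs of different mice at -0.0907. Removal of the means itself pushes the second value below 0, so it is not a separate baseline.

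The genes, the lists and the markers were chosen with earlier results of these data known. All 31 genes are named, with every library for those that changed by at least 1 (log2) in WT cells or were called between genotypes. Other pathway genes are named by the same 2 criteria, except for 1 gene that is not reported here. The 18 alternatives covered the filter, the fit, batch, quantile normalization, the mouse as a block and leaving out each of 8 mice. Promoter windows are from RefSeq and gene positions from GENCODE vM21, both on GRCm38, which is mm10.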

Additional observations from a re-analysis of the deposited data

Results flagged for a closer look

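Of 310 sets of 4 libraries (31 genes in 10 groups), 12 held a library that stood apart from the other 3 by Dixon's 95% limit, where chance alone gives about 1 in 20. Cpeb4-/- mouse 3 was high in 3 of them. Its rlog was 12.311 for Scd2 at 1 hr, beside 11.642 to 11.729 in the other libraries, 12.082 for Srebf1 at 1 hr, beside 11.931 to 11.943, and 11.458 for Insig1 in untreated cells, beside 11.247 to 11.282. Cpeb4-/- mouse 2 was high for Pmvk at 6 hr (10.67) and low at 3 hr for Cyp51 (12.156) and Nr1h2 (11.298). Cpeb4-/- mouse 62 was low for Fdft1 at 1 hr (9.0443).

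Among WT libraries, mouse 87 was low for Hmgcs1 in untreated cells (11.671) and high for Cyp51 at 1 hr (12.174). Mouse 25 was low for Acat2 in untreated cells (8.7202), mouse 88 for Nr1h3 at 6 hr (10.207, beside 10.536 to 10.553) and mouse 69 for Fasn at 9 hr (11.008, beside 11.415 to 11.468). The Nr1h3 library lies in the comparison of the genotypes at 6 hr, and the call of Nr1h3 was kept without it.

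The genotype difference of Srebf1 departed from that in untreated cells at 9 hr by 0.241 on the log2 scale, the 1 such difference called by limma among the 31 genes.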

How the results depend on the processing

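The total of the 31 genes called, higher and lower together, moved by less than 1.5 times under every alternative run for the comparisons over time, though quantile normalization shifted calls from higher to lower (1 to 4 lower in WT cells at 1 hr, 5 to 8 at 3 hr and 3 to 7 at 6 hr, and 1 to 5, 4 to 8 and 2 to 5 in Cpeb4-/- cells). Totals between the genotypes moved more. Without the filter on low expression the calls at 1, 3, 6 and 9 hr numbered 0, 0, 4 and 3, and in eBayes without trend there were 0 at 3 hr, 4 at 6 hr and, for the difference against 0 hr, 0 at 9 hr. With batch as a covariate 0 were called at 3 hr. Quantile normalization gave 1 for untreated cells. One model of 40 libraries gave 1, 6 and 11 at 0, 1 and 9 hr. The mouse as a replicate block (random effect) gave 6, 4 and 11 at 1, 3 and 9 hr, and 3 and 3 for the difference against 0 hr at 6 and 9 hr. As a fixed effect the block gave 4 and 2 for the latter. Leaving out each mouse gave 0 to 3, 0 to 4, 5 to 15 and 4 to 13 genes at 1, 3, 6 and 9 hr, and 0 to 1 for the difference against 0 hr, both at 6 and at 9 hr. The shares of all genes called under these alternatives are not given, and the cause of these shifts was not tested. Each change of direction came from quantile normalization. In WT cells against untreated it gave -0.00622 (1 hr) and -0.176 (3 hr) for Msmo1, -0.394 (6 hr) and -0.244 (9 hr) for Abca1, -0.0913 (6 hr) for Mylip, -0.117 (9 hr) for Srebf1 and, at the 4 times in turn, -0.0612, -0.0489, -0.0978 and -0.0329 for Nr1h2. In Cpeb4-/- cells it gave -0.178 for Msmo1 and -0.0237 for Sqle at 3 hr, -0.0696 for Scap, -0.29 for Abca1 and -0.055 for Mylip at 6 hr, and -0.0346, -0.02, -0.0585 and -0.0378 for Nr1h2. Between consecutive times it gave -0.0489 (6 against 3 hr) and 0.0649 (9 against 6 hr) for Nr1h2 and 0.0338 (9 against 6 hr) for Insig1. Genotype directions did not turn under the alternatives run. Among all genes called, the share that was higher moved by more than 10 percentage points under quantile normalization at 1 hr in both genotypes, between the genotypes at 6 hr and, for the difference against 0 hr at 6 hr, from 30.6% to 44.9%. No alternative moved the median of all genes by over 0.1. Depth was not looked at, rlog shrinks differences of genes with few reads, and 4 mice a group leave small genotype differences near the threshold.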
